A study of Homo sapiens with 18 samples.

Results

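The CDK inhibitor genes are the 7 human genes that encode proteins which bind and block cyclin-dependent kinases: CDKN1A, CDKN1B and CDKN1C of the CIP/KIP family, and CDKN2A, CDKN2B, CDKN2C and CDKN2D of the INK4 family. They were taken by symbol from a table of 56269 genes, where all 7 had a row. Of the 7, 6 had a mean normalized count of at least 10 over the 18 libraries and were tested among 13686 genes. CDKN1C did not reach that level and is described by its reads.

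The libraries are polyA RNA-Seq of IMR90, a line of human lung fibroblasts, in 6 groups of 3 described as biological replicates. The pre-incubation lasted 6 h and used PBS alone, cNSF-HA (the control, unfragmented hyaluronan made by naked mole-rat skin fibroblasts) or fNSF-HA (the same hyaluronan after partial fragmentation), both at 20 µg/ml. In each case 3 libraries came from cells collected straight after the pre-incubation and 3 from cells that then met 200 µM tBHP, an organic hydroperoxide used as an oxidant, for 1 h and were collected 6 h after its start. Every group was therefore the same line without genetic change, and no group had the later collection time without tBHP. In the tBHP responses below, the oxidant, the later collection and the removal of the pre-incubation cannot be told apart. All 14 lung fibroblast markers examined had a mean of at least 10. Of 14 markers of other cell types only VWF did, 4 had no read in any library, and the sum of all 14 ranged from 14.9 to 25.6 without tBHP and from 26.4 to 40.9 after it. Each library held 20261103 to 26287660 reads assigned to genes.

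A cell passes from G1 into S phase when cyclin D with CDK4 or CDK6, and then cyclin E with CDK2, phosphorylate the retinoblastoma protein RB1 and so release E2F factors. INK4 proteins bind CDK4 and CDK6 and keep cyclin D away, whereas CIP/KIP proteins bind assembled cyclin-kinase complexes, chiefly those of CDK2. CDKN1A encodes p21, which is induced by DNA damage and oxidants. CDKN2A encodes p16 and, from another first exon and reading frame, ARF. Both CDKN2A and its neighbour CDKN2B are held in check by Polycomb complexes in young fibroblasts and are known for their rise in senescence.

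The 3 members whose transcripts changed after tBHP are shown first by the DNA in front of their starts, since these windows let a reader set one changed gene against another. The windows are the 250 bases upstream of a RefSeq start (GRCh38.p14), 5′ to 3′ on the strand of the gene, with capitals for matches on either strand to GGGCGG (the core of GC boxes), CCAAT (the CCAAT box) or the TATA box, spelled TATAAA. They lie at chr6:36678464-36678713 (plus strand) for CDKN1A, chr9:22009306-22009555 (minus strand) for CDKN2B, and chr1:50968456-50968705 and chr1:50969995-50970244 (plus strand) for 2 of the 3 starts of CDKN2C.
CDKN1A: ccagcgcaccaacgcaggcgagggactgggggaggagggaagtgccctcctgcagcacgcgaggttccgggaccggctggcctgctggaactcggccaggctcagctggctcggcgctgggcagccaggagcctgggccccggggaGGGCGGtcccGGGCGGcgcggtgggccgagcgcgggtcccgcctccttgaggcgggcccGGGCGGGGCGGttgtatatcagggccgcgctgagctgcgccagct
CDKN2B: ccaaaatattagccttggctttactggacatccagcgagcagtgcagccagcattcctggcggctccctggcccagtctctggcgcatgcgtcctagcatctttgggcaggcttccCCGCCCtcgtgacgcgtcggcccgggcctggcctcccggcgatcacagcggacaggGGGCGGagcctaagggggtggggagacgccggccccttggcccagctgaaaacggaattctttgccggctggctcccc
CDKN2C, first of the pair: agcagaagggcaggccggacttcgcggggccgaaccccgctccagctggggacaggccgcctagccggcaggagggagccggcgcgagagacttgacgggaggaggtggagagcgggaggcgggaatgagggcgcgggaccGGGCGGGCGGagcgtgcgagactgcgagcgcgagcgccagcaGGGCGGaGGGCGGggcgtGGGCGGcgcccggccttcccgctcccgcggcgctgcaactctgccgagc
CDKN2C, second of the pair: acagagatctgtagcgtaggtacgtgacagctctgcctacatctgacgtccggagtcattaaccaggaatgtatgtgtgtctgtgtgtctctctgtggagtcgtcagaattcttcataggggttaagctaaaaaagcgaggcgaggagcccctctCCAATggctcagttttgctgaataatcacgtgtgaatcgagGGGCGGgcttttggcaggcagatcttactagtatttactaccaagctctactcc

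The CDKN1A window was 76.4% GC with 4 matches to GGGCGG, 2 of them overlapping. The CDKN2B window was 66.4% GC with 2 matches. The CDKN2C windows were 77.2% GC with 5 matches, 2 of them overlapping, and 48.8% GC with 1 match to GGGCGG and 1 to CCAAT. Of 35116 RefSeq windows of the same length, GGGCGG was present in 42.6%, CCAAT in 32.0% and TATAAA in 10.7%. No TATAAA was found in these 4 windows. The window of the remaining CDKN2C start, chr1:50960495-50960744, was 45.6% GC and held none of the 3 motifs. Members without a called response held matches as well. CDKN1B had 1 match to GGGCGG and 2 to CCAAT, and CDKN2D had 2 and 1. The CDKN2A window at chr9:21974858-21975107 had 1 and 0, and that at chr9:21995325-21995574 had 0 of each. TATAAA was absent from these windows too. None of this was tested against expression.

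**Figure D1:**
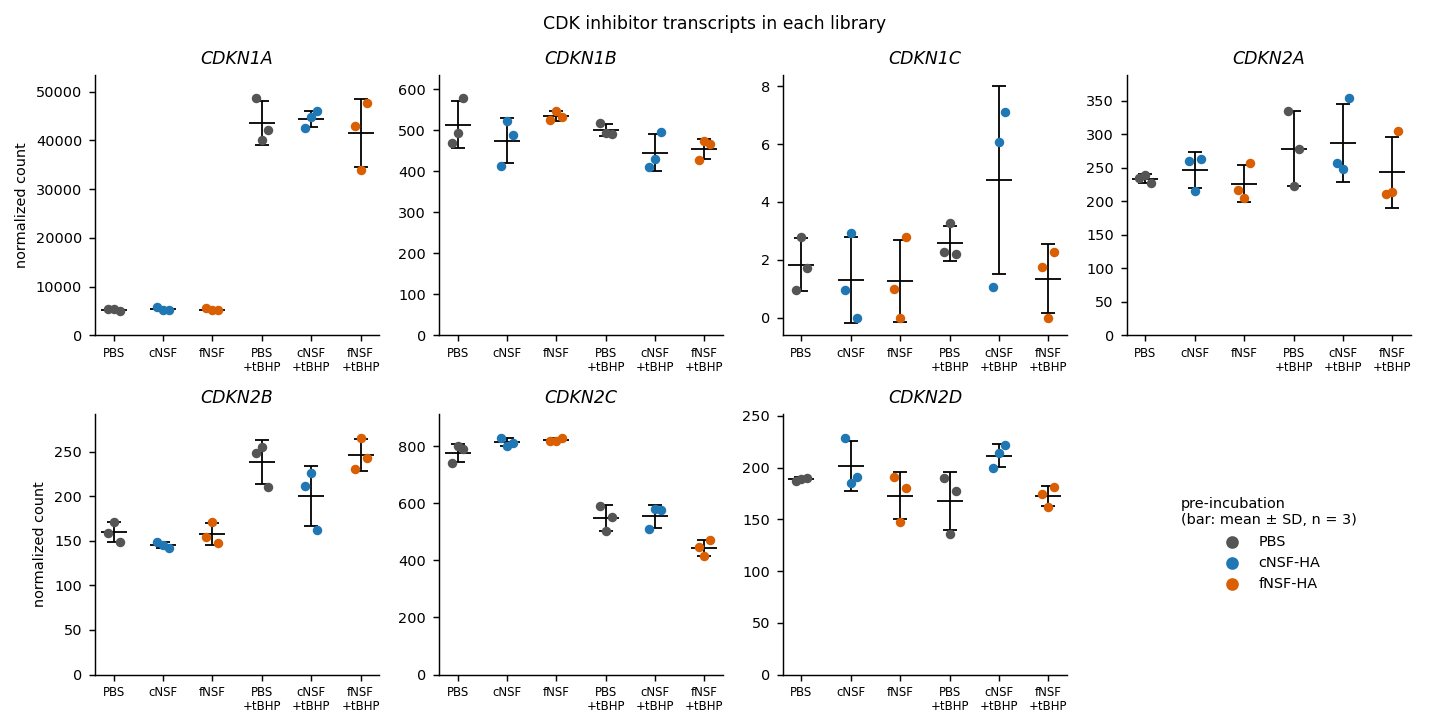
Normalized counts (vertical axis) of the 7 CDK inhibitor genes in each of the 18 libraries (points), by group (horizontal axis), with the mean ± SD of 3 libraries as bars. CDKN1A stood between 4968 and 5713 in all libraries without tBHP and between 34012 and 48647 in all libraries after it, CDKN2B rose and CDKN2C fell after tBHP in each pre-incubation, and CDKN1C stayed below 8 throughout.

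The 7 genes spanned a very wide range of levels. Divided by the exon length of the gene in kilobases, the mean normalized count over all libraries was 7947 for CDKN1A, 199 for CDKN2C, 173 for CDKN1B, 124 for CDKN2D, 58.3 for CDKN2A, 47.1 for CDKN2B and 0.878 for CDKN1C. The exon lengths came from GENCODE 29 and count the exons of all isoforms of a gene. These levels are therefore lower than they would be for the main isoform alone. The lowering was uneven. CDKN2A has 4329 exon bases but a longest transcript of 1283, against 4058 and 3911 for CDKN2B and 2811 and 2657 for CDKN1B. The place of CDKN2A in this order therefore depends on the length used. After tBHP the order turned in places: CDKN1B stood above CDKN2C in PBS (178 against 165) and in fNSF-HA cells (162 against 134). CDKN2B stood above CDKN2A in fNSF-HA cells (60.7 against 56.2), where their means before the division by length were 246 and 243. That turn depends on the length used. So does the turn of CDKN1B above CDKN2C in PBS, where the means before division were 501 and 549. CDKN1A already exceeded the other members without tBHP, at 1715 normalized counts per kilobase in PBS against 234 for CDKN2C.

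Expression of CDKN1A rose about 8-fold after tBHP whatever the pre-incubation. CDKN1A (GENCODE 29 on GRCh38, chr6:36676460-36687339, plus strand) had normalized counts, that is, reads scaled to a common library depth, of 5346, 5379 and 4968 in the PBS libraries and 48647, 39991 and 42174 in the PBS libraries after tBHP. With cNSF-HA the values were 5713, 5171 and 5130.1 without tBHP and 42582, 44701 and 45932 after it. With fNSF-HA they were 5492, 5099 and 5189.6 without and 43042, 34012 and 47721 after it. Every library after tBHP was far above every library without it, and the lowest of the 9 exposed libraries was fNSF-HA replicate 2. The response, as the log2 difference of normalized counts + 1 fitted by limma, was 3.06 in PBS cells (SE 0.10, adjusted p = 2.35e-13), an 8.31-fold rise with a 95% interval of 7.21 to 9.58. The rise was 8.32-fold with cNSF-HA (7.22 to 9.60, adjusted p = 1.68e-13) and 7.83-fold with fNSF-HA (6.79 to 9.03, adjusted p = 2.14e-13). In bulk RNA, a change in the level per cell and a change in the share of cells that express the gene cannot be told apart. In PBS cells the response stood at the 99.8th percentile of the responses of all genes tested. The 3 responses differed by −0.09 to 0.09 on the log2 scale with adjusted p of 0.817 or more in limma's interaction tests, and the 95% intervals of these differences reached from −0.38 to 0.38. DINOL, an antisense gene, shares 146 exonic bases with CDKN1A, and the library kit does not keep strand.

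The INK4 gene CDKN2B, which encodes p15, a TGF-beta-responsive inhibitor of CDK4 and CDK6, rose by a smaller factor. CDKN2B (chr9:22002903-22009363, minus strand) had normalized counts of 159, 172 and 149 in PBS and 249, 256 and 210.1 in PBS after tBHP. The cNSF-HA libraries held 149, 146 and 142 without tBHP and 212, 226 and 163 after it, and the fNSF-HA libraries 154, 171 and 148 without and 231, 266 and 243 after it. Within each pre-incubation the 3 exposed libraries lay above the 3 others, with the narrowest gap in cNSF-HA, where the third replicate after tBHP held 163. Its log2 response was 0.57 after PBS (SE 0.12, adjusted p = 0.000886), 0.45 after cNSF-HA (adjusted p = 0.00575) and 0.64 after fNSF-HA (adjusted p = 0.000411), or 1.48-, 1.36- and 1.56-fold. CDKN2A, its neighbour on the chromosome, shared no exact stretch of 100 bases, the read length, with CDKN2B in GENCODE 29 transcripts.

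CDKN2C, which encodes p18 and is itself a target of E2F factors, fell after tBHP in every pre-incubation. CDKN2C (chr1:50960745-50974633, plus strand) had normalized counts of 741, 799 and 790.4 in PBS and 591, 503 and 551 in PBS after tBHP. With cNSF-HA it had 829, 801 and 811 without tBHP and 508, 579 and 577 after it. With fNSF-HA it had 819, 818 and 830.1 without tBHP and 447, 414 and 470.4 after it. All exposed libraries lay below all others, and the 3 fNSF-HA libraries after tBHP were the lowest of the 18. The log2 response was −0.50 after PBS (SE 0.08, adjusted p = 4.53e-05), −0.55 after cNSF-HA (adjusted p = 1.82e-05) and −0.89 after fNSF-HA (adjusted p = 7.94e-08), a level 0.706, 0.681 and 0.540 times that without tBHP.

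The other 3 tested members did not pass the threshold in any pre-incubation. CDKN1B (chr12:12715058-12722371, plus strand) encodes p27, which is governed largely through its translation and degradation. Its normalized counts were 470.2, 493 and 579 in PBS, 414, 523 and 488 in cNSF-HA and 525, 547 and 534 in fNSF-HA, and after tBHP 517, 493 and 492, then 411, 429 and 496, then 428, 473 and 466. The log2 responses were −0.03 (adjusted p = 0.817), −0.09 (adjusted p = 0.467) and −0.23 (adjusted p = 0.0711), and only with fNSF-HA did the groups not overlap. That fNSF-HA response passed with the trend on GC content and transcript length removed (−0.29, adjusted p = 0.0086). At −0.23 it also passed with the replicate number as a block (adjusted p = 0.048) and without cNSF-HA + tBHP replicate 3 (adjusted p = 0.049). In these 3 fits 56.1%, 43.4% and 45% of all genes passed.

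CDKN2A (chr9:21967753-21995301, minus strand) had 235, 239.8 and 227 normalized counts in PBS, 260.5, 215 and 264 in cNSF-HA and 217, 205 and 257 in fNSF-HA. After tBHP it had 335, 223 and 278, then 257, 249 and 354, then 211, 214 and 304. The groups overlapped in every pre-incubation, and the log2 responses of 0.23, 0.20 and 0.09 had adjusted p of 0.259, 0.325 and 0.708. They fell to 0.09 without PBS + tBHP replicate 1, 0.04 without cNSF-HA + tBHP replicate 3 and −0.08 without fNSF-HA + tBHP replicate 3. With the trend on GC content and length removed, all 3 turned sign, to −0.10, −0.23 and −0.02, and none passed. The gene row joins the transcripts of p16 and ARF, so a change in one of them cannot be told apart. The antisense gene CDKN2B-AS1 shares 341 exonic bases with CDKN2A, and its own row had a mean of 7.16 normalized counts against 252 for CDKN2A.

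CDKN2D (chr19:10566462-10569059, minus strand), which encodes the INK4 protein p19, had 187, 189 and 190.2 normalized counts in PBS, 229, 185 and 191 in cNSF-HA and 191, 148 and 179.8 in fNSF-HA. After tBHP it had 189.5, 136 and 177, then 199, 214 and 222, then 175, 162 and 181. The groups again overlapped, with log2 responses of −0.19, 0.07 and 0.00 (adjusted p = 0.24, 0.65 and 0.99). With the trend on GC content and length removed, the responses were −0.51 in PBS (adjusted p = 0.00264), −0.35 in cNSF-HA (adjusted p = 0.032) and −0.10 in fNSF-HA cells (adjusted p = 0.558). The call of CDKN2D in PBS and cNSF-HA cells and its sign in cNSF-HA and fNSF-HA cells thus depended on that removal. In PBS cells the sign did not turn.

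CDKN1C (chr11:2883213-2885773, minus strand), which encodes p57 and is imprinted in human tissues, gave 39 reads in the 18 libraries together, at most 7 in one library and 0 in 3. Its normalized counts were 0.966, 2.80 and 1.73 in PBS, 0.954, 2.93 and 0 in cNSF-HA and 0.981, 0 and 2.80 in fNSF-HA. After tBHP they were 2.27, 3.27 and 2.19, then 1.05, 6.09 and 7.12, then 1.75, 0 and 2.28. The groups overlapped, and no difference was detectable at this depth.

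**Figure D2:**
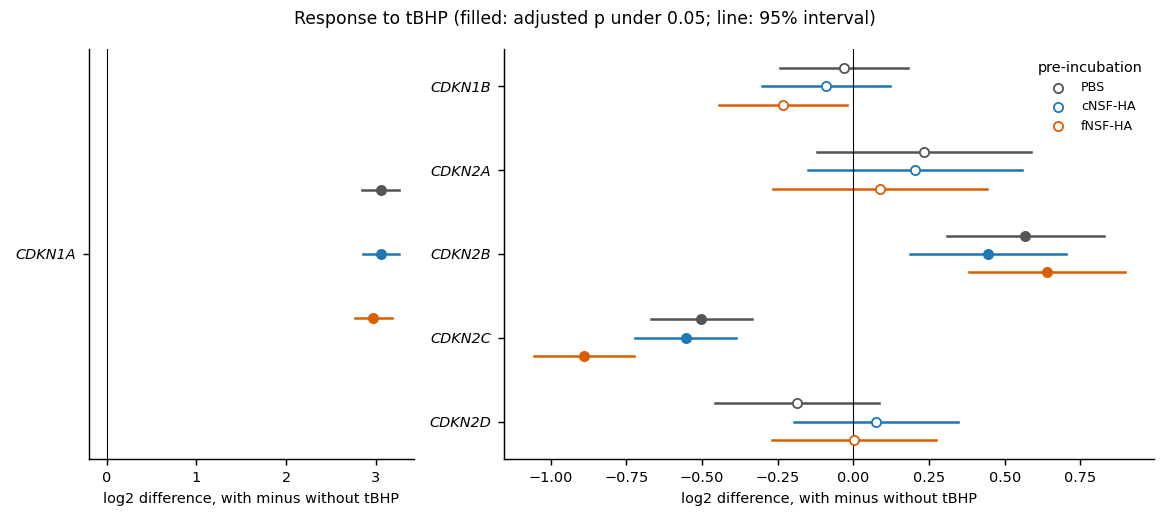
Log2 difference between cells with and without tBHP (horizontal axis) for the 6 tested CDK inhibitor genes (vertical axis) in PBS, cNSF-HA and fNSF-HA cells, with 95% intervals as lines and filled points where the adjusted p was under 0.05. The 3 points of CDKN1A sit near 3, those of CDKN2B between 0.45 and 0.64, those of CDKN2C between −0.89 and −0.50, and the open points of the other 3 genes lie near 0.

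Of the 6 members tested, 3 passed the threshold after tBHP in PBS cells, against 51.1% of all genes tested, with 2 higher (24.2% of all genes) and 1 lower (26.9%). The share of members called thus lay near that of all genes. The same 3 members passed in cNSF-HA cells, where 50.8% of all genes did (24% higher, 26.8% lower), and in fNSF-HA cells, where 41.9% did (19.2% higher, 22.7% lower). The 3 responses used separate libraries. The exposed and unexposed libraries did not overlap for 3 members with PBS (63.8% of all genes), for 3 with cNSF-HA (63.7%) and for 4 with fNSF-HA (48.7%).

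Before tBHP, none of the 6 members passed the threshold between pre-incubations. Without tBHP, CDKN1A differed by 0.03 between cNSF-HA and PBS (95% interval −0.18 to 0.23) and by 0.01 between fNSF-HA and PBS (−0.20 to 0.21) on the log2 scale. The 18 differences among the 6 genes ran from −0.18 for CDKN1B to 0.22 for CDKN2D, both for cNSF-HA against fNSF-HA, and every adjusted p was 1. No gene of the 13686 passed in these 3 comparisons (0%); with only the compared groups in the fit, 0, 21 and 980 genes passed (980 for cNSF-HA against fNSF-HA), and with DESeq2 0, 3 and 0, no member among them. In the limma fit of all groups no member had an unadjusted p under 0.05, against 126, 109 and 206 of all genes. For CDKN2C all cNSF-HA and all fNSF-HA libraries stood above the PBS libraries, by 0.07 (95% interval −0.10 to 0.23) and 0.08 (−0.08 to 0.25). CDKN1B stood lower in all cNSF-HA than in all fNSF-HA libraries (−0.39 to 0.03). Such separation of 3 libraries from 3 was found in 15.2%, 14% and 25% of all genes in the 3 comparisons of cNSF-HA with PBS, fNSF-HA with PBS and cNSF-HA with fNSF-HA.

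After tBHP, CDKN2C had the smallest p-values of the members in the comparisons of fNSF-HA with PBS and with cNSF-HA, and it did not pass the threshold in either. Its normalized counts were 549 ± 44.2 in PBS, 555 ± 40.6 in cNSF-HA and 444 ± 28.4 in fNSF-HA cells (SD, n = 3 each). The fNSF-HA libraries all lay below the PBS libraries, with a log2 difference of −0.30 (95% interval −0.47 to −0.14, adjusted p = 0.0896), and below the cNSF-HA libraries, with cNSF-HA higher by 0.32 (0.15 to 0.49, adjusted p = 0.0981). Between cNSF-HA and PBS the difference was 0.02 (−0.15 to 0.18). These pairs share libraries and are not independent of each other. DESeq2 on the recovered reads called both fNSF-HA differences (adjusted p = 0.0213 and 0.0242) in a fit that called 3.23% and 6.74% of all genes, against 0.139% and 0% by limma, while with the trend on GC content and length removed they shrank to −0.12 and 0.08 (adjusted p = 0.454 and 0.584). Without fNSF-HA + tBHP replicate 3 both passed (−0.35, adjusted p = 0.00845, and 0.36, adjusted p = 0.00412), but 29.4% and 40.8% of all genes then passed as well. Without PBS + tBHP replicate 2 the first did (−0.36, adjusted p = 0.0457), along with 1.25% of all genes. The response of CDKN2C to tBHP differed between fNSF-HA and PBS cells by −0.39 (95% interval −0.62 to −0.15), with adjusted p = 0.667 in limma's interaction test, and between cNSF-HA and fNSF-HA cells by 0.34 (0.10 to 0.57, adjusted p = 0.71). With the trend removed these were −0.22 and 0.14.

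CDKN2D and CDKN2B also showed differences whose libraries did not overlap. CDKN2D was higher in every cNSF-HA library after tBHP (212 ± 11.4) than in the PBS (168 ± 28.0) and fNSF-HA libraries (172 ± 9.86; SD, n = 3 each), by 0.35 (95% interval 0.08 to 0.62, adjusted p = 0.547) and 0.29 (0.02 to 0.57, adjusted p = 0.13). With the trend on GC content and length removed, these became 0.21 and −0.10, and the first was also 0.21 without PBS + tBHP replicate 2. CDKN2B was lower in every cNSF-HA library (200.3 ± 33.4) than in the fNSF-HA libraries (246 ± 18) after tBHP, by −0.31 (−0.57 to −0.05, adjusted p = 0.109). That value was −0.17 without cNSF-HA + tBHP replicate 3 and −0.19 with the trend on GC content and length removed. Neither gene passed the threshold. For CDKN1A, after tBHP, the differences were 0.03 between cNSF-HA and PBS (−0.17 to 0.24), −0.08 between fNSF-HA and PBS (−0.28 to 0.13) and 0.11 between cNSF-HA and fNSF-HA (−0.10 to 0.31). The signs of all 3 turned among the alternatives, and none was called in any.

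No member of the 6 was called in the comparisons after tBHP of cNSF-HA with PBS, fNSF-HA with PBS and cNSF-HA with fNSF-HA, where 0%, 0.139% and 0% of all genes passed. For the last 2 of these, the counts over all genes moved when single libraries were left out. With all libraries 19 and 0 genes passed. With 1 library left out 0 to 4024 and 0 to 5586 passed, the most without fNSF-HA + tBHP replicate 3. At an unadjusted p under 0.05 there were 1, 1 and 3 members, against 1183, 3102 and 4412 of all genes. Of the 3 interaction tests, which called 0% of all genes, CDKN2C alone among members had an unadjusted p under 0.05, in 2 of them. Separated libraries were found for 1 member in cNSF-HA against PBS (9.57% of all genes), for 2, CDKN2C and CDKN1B, in fNSF-HA against PBS (12%), and for 3 in cNSF-HA against fNSF-HA (13.4%).

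**Figure D3:**
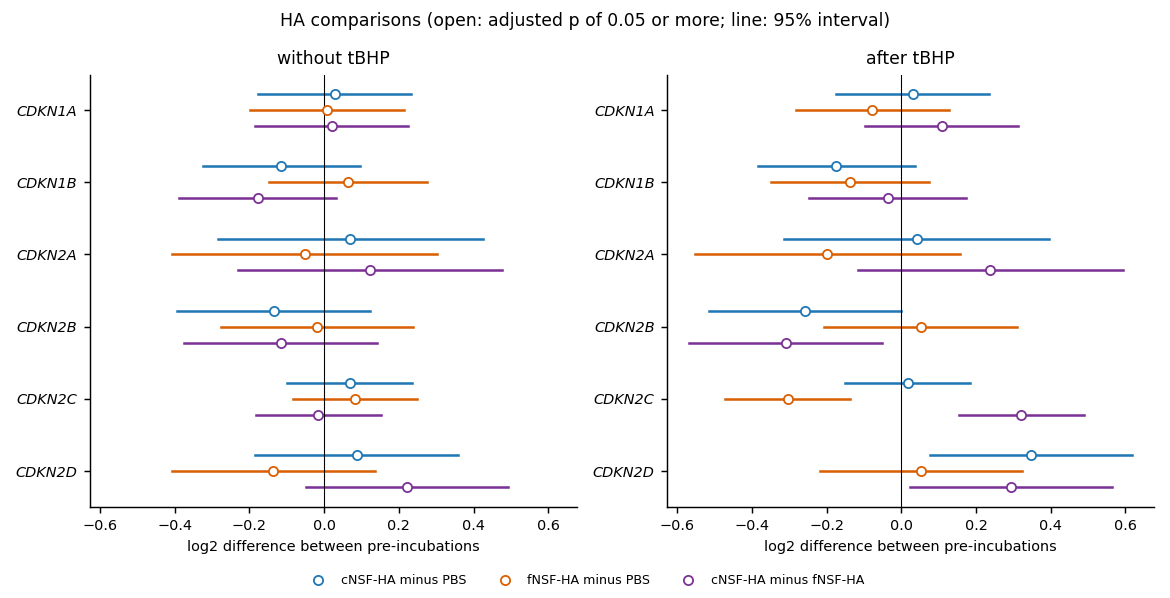
Log2 difference between pre-incubations (horizontal axis) for the 6 tested CDK inhibitor genes (vertical axis), without tBHP on the left and after tBHP on the right, with 95% intervals as lines; all points are open since no adjusted p was under 0.05. The intervals of CDKN2C after tBHP leave out 0 for fNSF-HA minus PBS (−0.30) and for cNSF-HA minus fNSF-HA (0.32).

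The spread between replicates differed among the members and grew after tBHP for CDKN1A, CDKN2A, CDKN2B and CDKN2C. The pooled SD of CDKN2A on the log2 scale was 0.14 without and 0.29 after tBHP, that of CDKN1A 0.07 and 0.17, that of CDKN2B 0.09 and 0.18 and that of CDKN2C 0.04 and 0.11, against medians of 0.08 and 0.21 over all genes tested. CDKN2D hardly changed (0.15 and 0.16), as did the barely detected CDKN1C (0.84 in both). CDKN1B went the other way, at 0.14 and 0.10. Within the exposed groups GC-rich transcripts moved together: the 1253 genes with the highest GC content had a median log2 deviation from the group mean of −0.52 in fNSF-HA + tBHP replicate 2 and 0.44 in replicate 3, 0.21 in PBS + tBHP replicate 1 and 0.14 in cNSF-HA + tBHP replicate 3. Without tBHP that median stayed between −0.03 and 0.02. In each exposed group, the library with the highest median was also the one with the highest normalized count of CDKN1A, CDKN2A and CDKN2D. It was the highest in 2 of the 3 groups for CDKN1B and CDKN2C and in 0 of 3 for CDKN2B. The transcripts of the first 3 genes had 58.1%, 61.4% and 61.3% GC, against 44.6% for CDKN2B, 47.7% for CDKN1B and 58.1% for CDKN2C. With the trend removed, the log2 responses of CDKN2A were −0.10, −0.23 and −0.02 with PBS, cNSF-HA and fNSF-HA, opposite in sign to those above, and none passed. The responses of CDKN1A, CDKN2B and CDKN2C in PBS cells were then 2.79, 0.68 and −0.75, and all 3 passed.

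**Figure D4:**
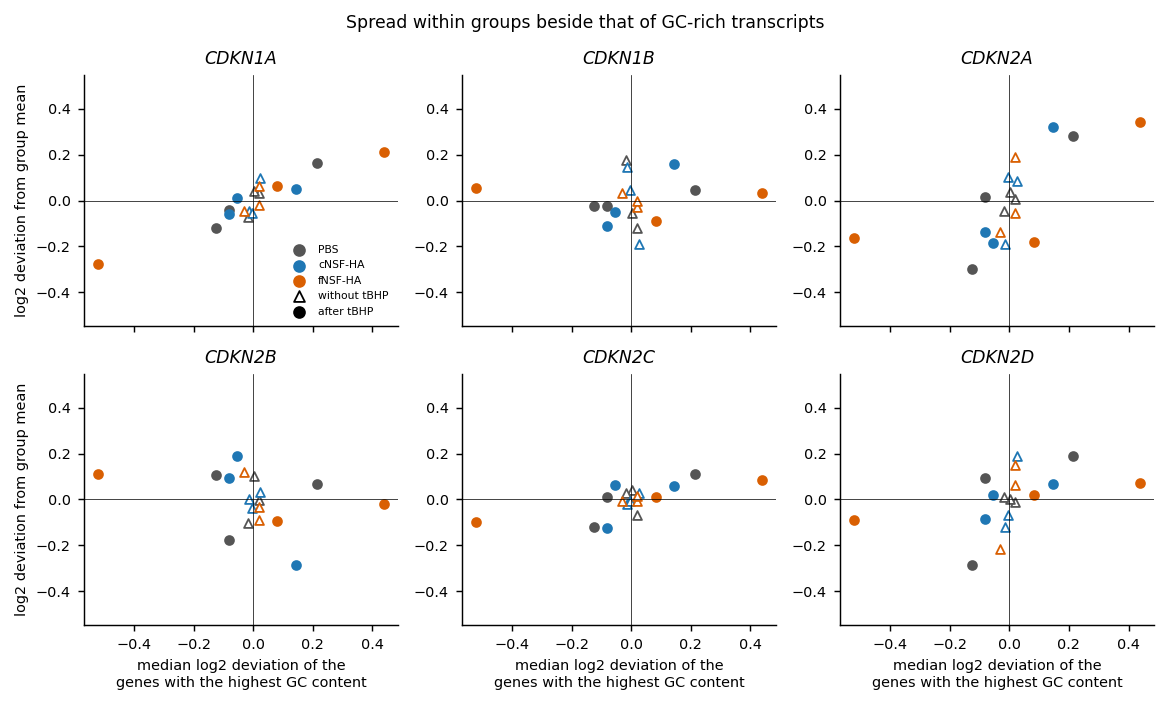
Log2 deviation of each of the 6 tested CDK inhibitor genes from its group mean (vertical axis) against the median log2 deviation of the 1253 genes with the highest GC content in the same library (horizontal axis), 1 point per library. In each colour the circle farthest to the right (0.14, 0.21 and 0.44; libraries after tBHP) is also the highest circle of that colour for CDKN1A, CDKN2A and CDKN2D, as it is for CDKN1B and CDKN2C in 2 of 3 colours, while the libraries without tBHP (triangles) lie within 0.03 of 0 on the horizontal axis.

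The partners of the inhibitors moved mostly downward after tBHP. Of 15 cyclin-dependent kinases and cyclins, all tested, 10 fell and 1 rose in PBS cells, with a median log2 response of −0.48 against 0.00 over all genes. CCNE2, an E-type cyclin, fell by 1.55 on the log2 scale (SE 0.16, adjusted p = 2.83e-07), and the mitotic and S-phase cyclins CCNB1 and CCNA2 fell by 1.16 and 1.10. CCNE1 (−0.75), CDK6 (−0.81) and CCND1, a D-type cyclin (−0.48), also fell. CDK2 and CDK4 had responses of 0.10 (adjusted p = 0.236) and −0.01 (adjusted p = 0.93), neither past the threshold; with the trend on GC content and length removed, that of CDK4 was −0.20 (adjusted p = 3.9e-05). With cNSF-HA, 9 of the 15 were lower after tBHP and 0 higher, against 26.8% lower and 24% higher over all genes. With fNSF-HA, 9 were lower and 1 higher, against 22.7% and 19.2%. Removal of the trend on GC content and length gave 10 lower and 3 higher for cNSF-HA, where 56.6% of all genes passed. For fNSF-HA it gave 11 lower and 3 higher, where 56.1% of all genes passed. Of 10 tested pocket proteins and E2F factors, 5 fell and 1 rose in PBS cells: E2F5 fell by 2.13 on the log2 scale and RB1 by 0.73, whereas E2F7, a repressor among the E2Fs, rose by 1.08 (adjusted p = 1.25e-06).

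Genes that act on the inhibitors went both ways. Of 23 tested transcription regulators of the inhibitor genes, 13 rose and 4 fell with PBS, 13 rose and 5 fell with cNSF-HA, and 10 rose and 4 fell with fNSF-HA. In the same order, 24.2%, 24% and 19.2% of all genes rose and 26.9%, 26.8% and 22.7% fell. In PBS cells KLF4, which can activate CDKN1A, rose by 2.02, CEBPB, a factor of the senescence secretome, by 1.94 and ZNF385A by 1.26. Of 15 Polycomb genes and demethylases, 5 rose and 6 fell in PBS cells: BMI1, a repressor of the INK4 locus, fell by 1.84 (SE 0.25, adjusted p = 1.1e-05), SUZ12 fell by 0.79, and KDM6B, which removes the Polycomb mark, rose by 0.86. Of 16 genes of inhibitor turnover and assembly, 4 rose and 7 fell; the ubiquitin ligase scaffold CUL4B and the ligase activator CDC20 fell by 1.13 and 1.06, and the exportin XPO1 by 0.92.

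Other genes linked to the kinases or the inhibitors and genomic neighbours of the 7 members were examined as well. Of 11 such others, most with CDK or CDKN in their symbol or full name, 2 rose and 4 fell in PBS cells: CDKN3, a phosphatase of CDK2, fell by 1.17, MTBP by 1.05, and CDK2AP2 rose by 0.85. Of 8 tested genes that neighbour the members or run antisense to them, 4 fell and 0 rose in PBS cells, among them KCNQ1OT1, the antisense RNA of the imprinted CDKN1C domain (−0.84), APOLD1 beside CDKN1B (−0.41) and FAF1 beside CDKN2C (−0.32). With cNSF-HA, 1 of these 8 fell (26.8% of all genes), and with fNSF-HA 2 did (22.7%). Removal of the trend on GC content and length gave 1 lower and 2 higher for cNSF-HA. For fNSF-HA it gave 2 lower and 1 higher. No gene of these 7 lists was called in a comparison between pre-incubations. Of the 14 lung fibroblast markers, 1 was higher and 1 lower in fNSF-HA than in PBS cells after tBHP (0.139% of all genes passed there), namely LUM (0.60, adjusted p = 0.0261) and FOXF1 (−0.36, adjusted p = 0.0393). With the trend on GC content and length removed, LUM no longer passed (0.33, adjusted p = 0.137) and FOXF1 did (−0.33, adjusted p = 0.00553); their part in the results on the members was not tested. The lists were chosen with results of these data known, so their counts are descriptions; 51.1% of all genes passed in PBS cells.

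Many of the named genes were poor or rich in GC. The transcripts of CCNE2, CDK6, E2F5, RB1, CUL4B, XPO1, BMI1, SUZ12 and MTBP, which fell, had 36.0% to 39.5% GC, and those of CEBPB, ZNF385A, KDM6B and CDK2AP2, which rose, had 62.4% to 66.2%. CDC20 fell with 57.9% GC and E2F7 rose with 43.1%. With the trend on GC content and length removed, a fit in which 57.8% of all genes passed, 3 of the 15 kinases and cyclins rose and 10 fell in PBS cells, with a median log2 response of −0.28, and 2 of the 10 pocket proteins and E2F factors rose and 7 fell. The other counts were then 14 higher and 6 lower for the transcription regulators, 4 and 4 for the Polycomb list, 6 and 7 for turnover and assembly, 3 and 6 for the other linked genes and 2 and 4 for the neighbours. Of the named genes that had passed, the log2 responses of 9 shrank by more than 1.5 times, to −0.41 for CDK6, −0.24 for RB1, −0.33 for SUZ12, −0.51 for MTBP, −0.47 for XPO1, −0.66 for CUL4B, −0.41 for KCNQ1OT1, 0.48 for CDK2AP2 and 0.53 for KDM6B, and all 9 still passed.

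**Figure D5:**
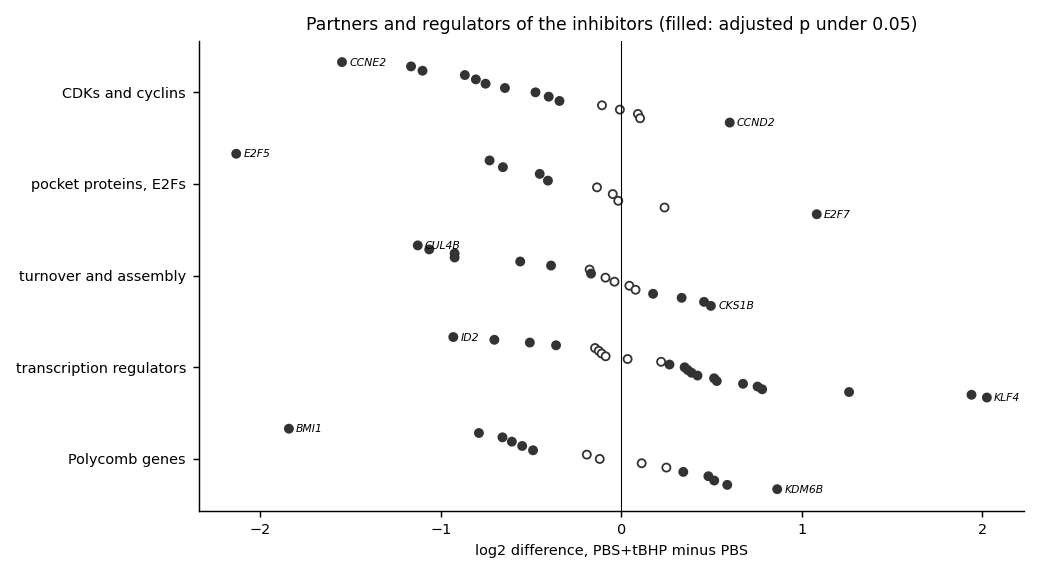
Log2 response to tBHP in PBS cells (horizontal axis) of the tested genes in 5 lists of partners and regulators of the CDK inhibitors (vertical axis; height within a list has no unit), with filled points where the adjusted p was under 0.05 and the lowest and highest gene of each list named. Most CDKs and cyclins lie left of 0, with CCNE2 at −1.55, and most transcription regulators lie right of 0, with KLF4 at 2.02.

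For each tested member, the 3 genes with the most similar log2 profile over the 18 libraries were sought among 10307 genes with a mean of at least 100. CDKN1A was closest to HMOX1, the heme oxygenase of the oxidative stress response, with Pearson's r = 0.999, then to SESN2 and TRIB3 at 0.999 each. CDKN2B was closest to KDM3B (0.97), KCTD10 (0.97) and CSNK1A1 (0.96), and CDKN2C to NOG (0.99), FZD7 (0.98) and HOXA3 (0.98). The members without a called response had weaker partners, REEP2 (0.87), C16orf13 (0.87) and TSTA3 (0.86) for CDKN2A, SOX4 (0.75), PPP1R2 (0.73) and HINT3 (0.71) for CDKN1B, and GEMIN7 (0.75), MT1L (0.74) and SLC39A1 (0.73) for CDKN2D. These values describe 18 libraries that share the same split by tBHP and the same scaling, and each was picked as the highest of 10307.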

How the data were processed

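Transcript levels were measured by RNA-Seq in 18 libraries of IMR90 cells, 3 in each of 6 groups named from the labels. RNA was extracted with Trizol and libraries made with the TruSeq RNA kit V2, which does not keep strand, and read as single ends of 100 nt. The submitters' processing notes name Trimmomatic 0.32, STAR 2.5.2b, featureCounts of Subread 1.5.0-p3, DESeq2 and the build GRCh38.p7. The authors deposited normalized counts, a signal of reads per gene divided by a size factor per library. The file also holds p-values and q-values of the authors' own test and a rank, as deposited, which were not used. Here 100% of the deposited values came out as whole reads (tolerance 0.01), and read totals per library are the sums of these.

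Genes with a mean normalized count of at least 10 were compared on log2(value + 1) with limma 3.58.1 (R 4.3.3; trend, 1 coefficient per group, all 18 libraries, 12 residual degrees of freedom before moderation), two-sided, for 12 comparisons, with Benjamini-Hochberg adjustment over the 13686 genes and a threshold of 0.05. All adjusted p-values come from this fit unless another tool is named. The alternatives were pseudocounts of 0.1 and 5, no filter and a mean of at least 50, equal median log2 ratios, quantile normalization, edgeR 4.0.16 (quasi-likelihood) and DESeq2 1.42.0 on the recovered reads, a fit of the compared groups alone, the replicate number as a block, removal of each library's trend on GC content and length (GENCODE 29, 91.5% of genes), and each library left out in turn. The GC and length trend was fitted to each library's deviation from the mean of all 18 libraries. Its removal can therefore also take away a part of a response that follows GC content or length. The fits were tested on simulated counts. The members and lists were chosen with earlier results of these data known. Named from each list were the 3 called genes with the largest response to tBHP in PBS cells, plus CDK2, CDK4, CDK6, CCND1 and CCNE1; 1 further gene is not reported here. Coordinates are from GENCODE 29 (GRCh38), which may differ from the annotation the authors counted on. Promoter windows are from RefSeq, with an entry for 6 of the 7 members. Counts of replicates differed by more than sampling noise in all 18 pairs within groups.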

Additional observations from a re-analysis of the deposited data

Results flagged for a closer look

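CDKN2C in fNSF-HA cells was flagged because all 3 fNSF-HA libraries stood above all 3 PBS libraries without tBHP (0.08 on the log2 scale) and all 3 stood below them after it (−0.30). The difference between these 2 contrasts was tested as an interaction and did not pass (−0.39, adjusted p = 0.667, and −0.22 with the trend on GC content and length removed, with an adjusted p of 0.068 to 1 over the alternatives).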

How the results depend on the processing

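Over the 30 alternatives, the log2 response in PBS cells kept its direction and its call for CDKN1A (2.79 to 3.13), CDKN2B (0.51 to 0.68) and CDKN2C (−0.75 to −0.44), as did those 3 genes with cNSF-HA and with fNSF-HA. The number of members called was 1 in place of 0, CDKN2C, with DESeq2 for fNSF-HA against PBS and for cNSF-HA against fNSF-HA after tBHP, and ranged from 0 to 1 for both when single libraries were left out. Over all genes, 442 and 923 passed with DESeq2, and 0 to 4024 and 0 to 5586 with single libraries left out, the highest without fNSF-HA + tBHP replicate 3, against 19 and 0. With the GC and length trend removed, 4 members in place of 3 passed in each response to tBHP, where 57.8%, 56.6% and 56.1% of all genes passed. Without tBHP, 980 in place of 0 genes passed for cNSF-HA against fNSF-HA with only the compared groups in the fit.

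Signs turned for values that had not passed, these among them. CDKN1A after tBHP ran from −0.05 to 0.11 for cNSF-HA against PBS, −0.18 to 0.10 for fNSF-HA against PBS and −0.15 to 0.21 for cNSF-HA against fNSF-HA. CDKN1B in PBS cells was 0.013 with quantile normalization and 0.028 with edgeR, and −0.092 to 0.057 with single libraries left out, above 0 without PBS replicate 3. CDKN2A, with the GC and length trend removed, with or without a block, was −0.10 in PBS, −0.23 with cNSF-HA and −0.015 with fNSF-HA, and in fNSF-HA cells −0.083 to 0.18 with single libraries left out, below 0 without fNSF-HA + tBHP replicate 3. CDKN2D with that trend removed, with or without a block, was −0.35 in cNSF-HA and −0.10 in fNSF-HA cells, and −0.10 for cNSF-HA against fNSF-HA after tBHP; in fNSF-HA cells it was −0.0030 with DESeq2, and −0.11 to 0.079 with single libraries left out, below 0 without fNSF-HA replicate 2 or either of fNSF-HA + tBHP replicates 1 and 3. The cause was not tested.

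The replicate numbers were not taken to pair the samples, since not every pair's correlation was above 0.1. Over 45 same-numbered pairs the deviations correlated between −0.12 and 0.33, 7 above 0.1. For the 9 same-numbered pairs before and after tBHP the range was −0.04 to 0.10. Libraries of different number reached 0.42 (PBS + tBHP replicate 1 with fNSF-HA + tBHP replicate 3). Of 18 libraries, 10 correlated best with their own number, which 5 of the 15 libraries of other groups carry. This is a hint of pairing from the data, and the labels number the replicates without stating a pairing. With the replicate block, 7228 in place of 6995 genes passed in PBS cells after tBHP and 61 in place of 19 for fNSF-HA against PBS after tBHP, the number of members called in PBS cells stayed 3, and CDKN1B in fNSF-HA cells (−0.23) passed with adjusted p = 0.048. Low counts limit CDKN1C.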
